A study of Mus musculus with 6 samples.

Results

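A group of 9 genes was followed in CD4+ T cells of the mouse spleen that carry or lack Lrig1 on their surface: *Pdzk1ip1*, *Actg2*, *Angptl2*, *Endod1*, *Spock2*, *Capn3*, *Ces2c*, *Bcam* and *Eea1*. These 9 of the 45777 genes in the tables were chosen by their summed counts, which were higher in CD4+Lrig1+ than in CD4+Lrig1- T cells in both deposited tables, and so the difference between the groups is described here and not tested. RNA-seq libraries were made from CD4+Lrig1+ cells and from CD4+Lrig1- cells sorted by flow cytometry from the spleens of female C57BL/6 mice aged 7 weeks, with no treatment named for either group. The labels list 3 samples of each group, and 2 libraries of each could be matched to a group by the names of the table columns. One table held a library of each group (set 1) and the other table held a further pair (set 2). The names give neither a replicate number nor an animal, so the spread between the 2 libraries of a group may be technical. Each library held between 44865070 and 59977951 estimated counts. *Lrig1* itself, the gene of the sorted protein, stood at 221 CPM (counts scaled to library depth) in the CD4+Lrig1+ library of set 1 against 75.4 in its CD4+Lrig1- library, and at 129 against 36.7 in set 2.

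Lrig1 is a single-pass membrane protein with leucine-rich repeats and immunoglobulin-like domains that restrains growth factor receptors, and the study asked what sets apart the T cells that carry it. The 9 genes belong to no common pathway. *Angptl2* and *Spock2* encode secreted proteins, *Bcam* and *Pdzk1ip1* membrane proteins, *Actg2* an actin, *Capn3* a protease, *Ces2c* an esterase, *Endod1* a protein with an endonuclease domain and *Eea1* a tether of early endosomes. Several of them are better known from smooth muscle, skeletal muscle, epithelium or liver than from T cells.

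Across the 9 genes, the CD4+Lrig1+ library exceeded its CD4+Lrig1- library by 6.81 to 30.5 times in set 1 and by 7.29 to 95.6 times in set 2. The median log2 ratio, with a prior count of 2, was 3.51 in set 1 and 3.67 in set 2, beside medians of 0.0052 and -0.060 over the 16123 genes with enough counts to be tested. All 9 passed that filter on low counts. All 9 had a log2 ratio above 2 in both sets, as did 485 of the tested genes (3.01%), and in all 9 the groups did not overlap in CPM, the CD4+Lrig1+ pair being higher, as in 14.3% of tested genes. These counts follow from how the genes were chosen. In bulk samples fewer cells of a type and less RNA in each cell cannot be told apart. Of the 9, 2 in set 1 and 3 in set 2 were among the 100 tested genes with the highest ratio. Over all genes, the edgeR quasi-likelihood test of the 2 libraries of a group against the other 2 called 0% of genes at an adjusted p under 0.05, with 674 genes higher and 227 lower at an unadjusted p under 0.05. The same comparison called 193 genes in edgeR's exact test, 313 in DESeq2's Wald test and 0 in limma. With the set entered as a replicate block it called 14.6% of genes as higher and 12.8% as lower in CD4+Lrig1+ cells.

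**Figure D1:**
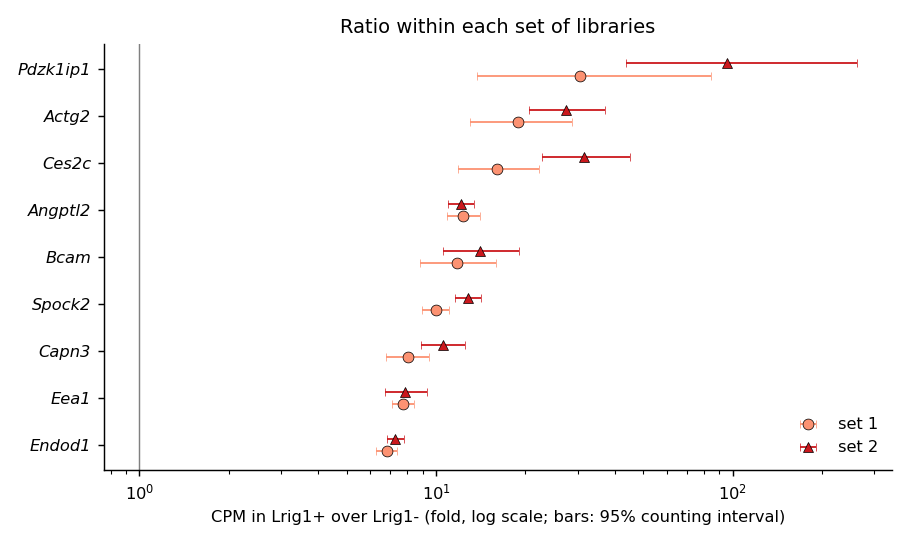
Ratio of CPM in CD4+Lrig1+ over CD4+Lrig1- T cells for each gene (x axis, log scale) in set 1 (circles) and set 2 (triangles), with bars for the exact 95% interval from counting error alone. *Pdzk1ip1* has the highest ratio and the widest bars, *Endod1* the lowest ratio, and the bars of the 2 sets overlap for 7 of the 9 genes.

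The transcripts of the secreted proteins were among the most abundant of the 9. *Angptl2* (gene 26360, chr2:33215951-33247725 on GRCm38, plus strand) encodes a secreted glycoprotein of the angiopoietin-like family. It held 253 estimated counts in the CD4+Lrig1- and 3392 in the CD4+Lrig1+ library of set 1, and 407 and 5238 in those of set 2. Its level was 78.2 ± 18.4 CPM in CD4+Lrig1+ and 6.41 ± 1.59 CPM in CD4+Lrig1- cells (SD, n = 2). The ratio was almost the same in both sets, at 12.3-fold (95% interval 10.9 to 14.1) in set 1 and 12.1-fold (10.9 to 13.4) in set 2. All intervals of ratios given here are exact and cover counting error only. *Spock2* (gene 94214, chr10:60106257-60135198, plus strand) encodes testican-2, a proteoglycan of the extracellular matrix. It held 394 and 4269 counts in set 1, and 398 and 5416 in set 2, where the CD4+Lrig1- library is given first here and below. The 2 CD4+Lrig1- libraries were close, at 8.23 and 7.37 CPM, and so were the CD4+Lrig1+ libraries, at 82.1 and 94.3 CPM. The ratio rose from 9.98-fold (8.996 to 11.1) in set 1 to 12.8-fold (11.6 to 14.2) in set 2, with intervals that do not overlap.

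The transcripts of the membrane proteins were lower. *Bcam* (gene 57278, chr7:19756138-19770532, minus strand) encodes the Lutheran glycoprotein, an immunoglobulin-like receptor for laminin. It held 51 and 650 counts in set 1, and 50 and 745 in set 2. Its CD4+Lrig1+ libraries were the closest pair among the 9 genes, at 12.7 ± 0.335 CPM (SD, n = 2) against 0.995 ± 0.0985 CPM in CD4+Lrig1- cells. *Pdzk1ip1* (gene 67182, chr4:115088708-115093894, plus strand) encodes a small membrane protein that binds the scaffold Pdzk1. It held 6 counts in each CD4+Lrig1- library, and 199 and 610 counts in the CD4+Lrig1+ libraries. With so few counts in the lower group the ratio was loosely fixed, at 30.5-fold (13.8 to 84.2) in set 1 and 95.6-fold (43.7 to 262) in set 2. The CD4+Lrig1+ libraries differed from each other, at 3.83 and 10.6 CPM.

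*Actg2* (gene 11468, chr6:83512909-83536251, minus strand) encodes the gamma actin of smooth muscle. It held 28 and 576 counts in set 1, and 49 and 1427 in set 2. The ratios were 18.9-fold (12.97 to 28.8) and 27.4-fold (20.6 to 37.2). No stretch of 50 bases of its transcript occurs in a transcript of another gene in the GENCODE M21 annotation. *Ces2c* (gene 234671, chr8:104847068-104854483, plus strand) encodes a carboxylesterase that cleaves ester bonds of lipids and drugs. It held 44 and 765 counts in set 1, and 37 and 1238 in set 2, with ratios of 16.0-fold (11.8 to 22.2) and 31.5-fold (22.7 to 44.9) whose intervals do not overlap. Of the 1921 windows of 50 bases in its transcript, 811 (42.2%) also occur in transcripts of other genes, 734 of them in the pseudogene *Ces2d-ps*. *Ces2d-ps* was listed with 30 and 358 counts in set 1, and 12 and 412 in set 2, so the split of reads between the 2 genes is uncertain.

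*Endod1* (gene 71946, chr9:14353990-14381242, minus strand) encodes a protein with an endonuclease domain. It was the most abundant of the 9 per length of transcript. It held 691 and 5109 counts in set 1, and 980 and 7599 in set 2, which is 115 ± 24.1 CPM in CD4+Lrig1+ and 16.3 ± 2.63 CPM in CD4+Lrig1- cells (SD, n = 2). Its ratios, 6.81-fold (6.29 to 7.38) and 7.29-fold (6.82 to 7.80), were the lowest of the 9. *Eea1* (gene 216238, chr10:95940663-96045518, plus strand) encodes early endosome antigen 1, which tethers vesicles through Rab5 and phosphatidylinositol 3-phosphate. It held 632 and 5298 counts in set 1, and 164 and 1375 in set 2. The ratios of the sets were alike, at 7.72-fold (7.11 to 8.40) and 7.88-fold (6.70 to 9.33), while the levels were not. On the transcript with the highest mean count alone, its log2 ratio was 1.70 in set 1 and 9.28 in set 2, beside 2.94 and 2.96 for the whole gene. The lower CD4+Lrig1+ library, at 23.9 CPM, stood only 1.81 times above the higher CD4+Lrig1- library, at 13.2 CPM, which belonged to the other set.

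**Figure D2:**
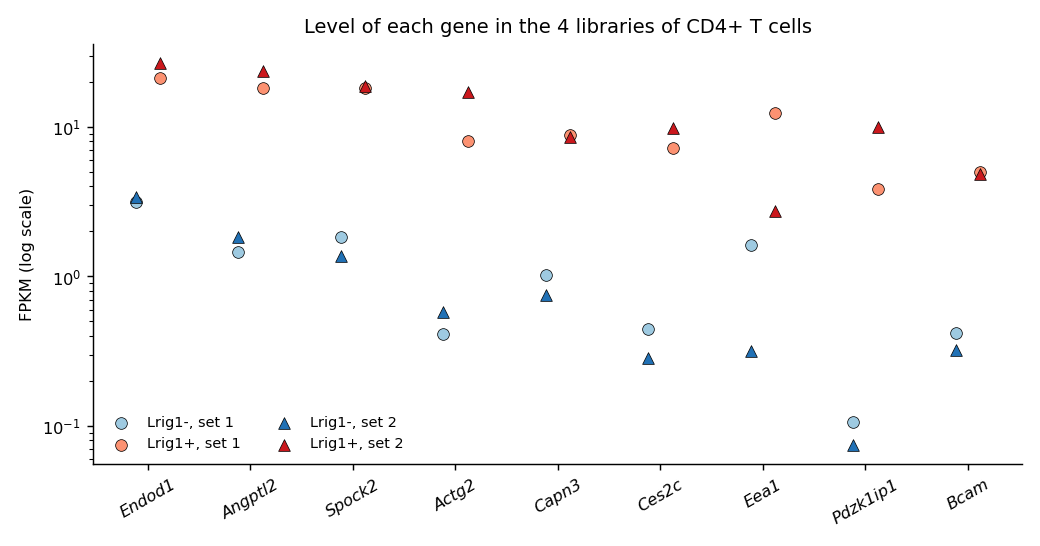
Level of each gene in FPKM (y axis, log scale) in the 4 libraries, CD4+Lrig1- in blue and CD4+Lrig1+ in red, set 1 as circles and set 2 as triangles. In every gene the red points lie above the blue ones, and *Eea1* is the gene whose points differ most between the sets.

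Levels of different genes can be compared per length of transcript, in fragments scaled by transcript length and library depth (FPKM). The mean FPKM in CD4+Lrig1+ cells ran from *Endod1* (24.0 ± 3.92, SD, n = 2) through *Angptl2* (21.0 ± 4.01), *Spock2* (18.5 ± 0.473), *Actg2* (12.6 ± 6.33), *Capn3* (8.73 ± 0.246), *Ces2c* (8.53 ± 1.91), *Eea1* (7.55 ± 6.78) and *Pdzk1ip1* (6.92 ± 4.37) to *Bcam* (4.93 ± 0.0901). Every pair of neighbours in this order differed by less than the larger of their SDs, which also hold the different FPKM totals of the 2 tables. Within each CD4+Lrig1+ library, *Endod1* was above *Angptl2* (21.2 against 18.2 FPKM in set 1, and 26.7 against 23.8 in set 2) and *Spock2* above *Actg2* (18.1 against 8.10, and 18.8 against 17.1). The mean FPKM in CD4+Lrig1- cells was between 0.0904 for *Pdzk1ip1* and 3.28 for *Endod1*. By the mean FPKM of all 4 libraries the 9 genes lay between the top 30.6% and the top 60.6% of tested genes, whose median was 5.39. The deposited FPKM values sum to different totals in the 2 tables, so levels between sets are compared in CPM.

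*Capn3* (gene 12335, chr2:120463593-120504919, plus strand) encodes a calcium-dependent protease best known from skeletal muscle. It held 161 and 1401 counts in set 1, and 153 and 1712 in set 2, with ratios of 8.01-fold (6.80 to 9.49) and 10.5-fold (8.91 to 12.5). The transcripts behind these totals differed between the sets. In set 1 the CD4+Lrig1+ library had 1250 counts on the shorter transcript NM_001177799 and 125 on the longer NM_007601, while in set 2 it had 119 and 1593. The CD4+Lrig1- libraries held 5 and 156 counts on the same 2 transcripts in set 1, and 0 and 153 in set 2. The shorter transcript took 89.2% of the *Capn3* counts of the CD4+Lrig1+ library in set 1 and 6.95% in set 2. On NM_007601 alone, the log2 ratio in set 1 was -0.43, the reverse of the whole gene.

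The shorter transcript has 21 exons and the longer 24, and the 3 exons that it lacks are coding and keep the reading frame. They hold 276 bases in all, and their sequences from the GENCODE transcript on GRCm38, plus strand, are given because only they separate the counts of the 2 transcripts. They encode part of the stretches by which Capn3 differs from other calpains.
Exon 6 of Capn3, chr2:120486333-120486476: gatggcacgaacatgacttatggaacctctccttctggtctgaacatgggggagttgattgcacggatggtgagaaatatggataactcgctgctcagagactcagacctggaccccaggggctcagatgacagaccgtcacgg
Exon 15 of Capn3, chr2:120498968-120498985: aaaaagaaaaaaaacaag
Exon 16 of Capn3, chr2:120501211-120501324: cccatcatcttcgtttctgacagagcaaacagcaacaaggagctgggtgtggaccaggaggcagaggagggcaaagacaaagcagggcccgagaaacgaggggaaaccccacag
Exon 15 has only 18 bases, and counts assigned to a transcript are estimates.

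*Eea1* also changed transcripts between libraries. NM_001001932 held 98.6% of its counts in the CD4+Lrig1- library of set 1, 41.5% in the CD4+Lrig1+ library of set 1, 0% in the CD4+Lrig1- library of set 2 and 98.0% in the CD4+Lrig1+ library of set 2. The model XM_006513525 held 100% of the 164 counts of the CD4+Lrig1- library of set 2. In *Angptl2*, NM_011923 held 85.1% and 84.0% of the counts in the CD4+Lrig1+ libraries of sets 1 and 2, against 47.0% and 71.5% in the CD4+Lrig1- libraries. In *Spock2*, NM_052994 held 59.6% and 54.5% in set 1, and 38.9% and 38.8% in set 2, so here the shares followed the set and not the group. In *Pdzk1ip1*, NM_026018 held 54.8% and 36.2% of the counts of the CD4+Lrig1+ libraries of sets 1 and 2, and none of the 6 counts of either CD4+Lrig1- library. In *Endod1*, NM_028013 held between 88.7% and 100% of the counts in the 4 libraries. The counts of *Actg2*, *Ces2c* and *Bcam* came from 1 transcript each.

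**Figure D3:**
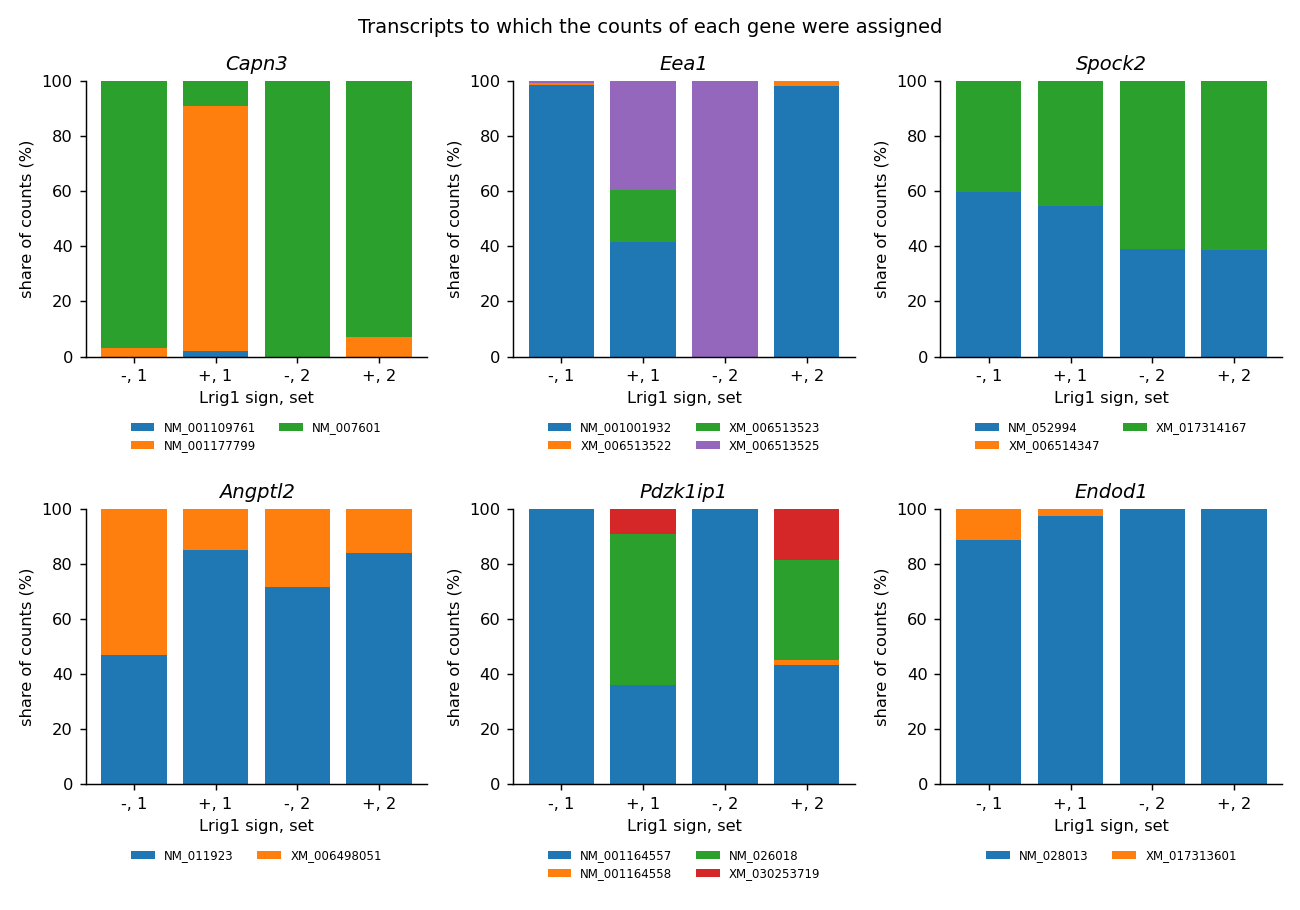
Share of the counts of each gene assigned to each of its transcripts (y axis, percent) in the 4 libraries, which are marked by Lrig1 sign and set, for the 6 genes with more than 1 transcript. In *Capn3* one CD4+Lrig1+ library is mostly NM_001177799 and the other mostly NM_007601, and in *Eea1* no transcript leads in all 4 libraries.

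The change of level between the sets was not itself used in choosing the genes. They were chosen for a rise in both sets, however. The error of a fit with set and group rests on how far the ratios of the 2 sets differ. The choice could therefore lower the p-values of the 9 genes, which are not independent of it. With the group as covariate, the edgeR quasi-likelihood test called 66.6% of all tested genes between set 2 and set 1, and 5 of the 9. *Pdzk1ip1* was higher in set 2 by 1.24 on the log2 scale (adjusted p = 0.015), *Actg2* by 1.03 (adjusted p = 0.0013), *Angptl2* by 0.50 (adjusted p = 0.0017) and *Endod1* by 0.39 (adjusted p = 0.0031). *Eea1* fell by 2.101 on that scale (adjusted p = 2.9e-06), in both groups. *Spock2*, *Capn3*, *Ces2c* and *Bcam* did not pass. For *Pdzk1ip1*, set 2 over set 1 was 2.78-fold in CPM in the CD4+Lrig1+ libraries and 0.887-fold in the CD4+Lrig1- libraries, where it rests on 6 counts in each. With the group left out of the fit, none of the 5 passed, and without the filter on low counts *Pdzk1ip1* had an adjusted p of 0.059, and in DESeq2 of 0.15.

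**Figure D4:**
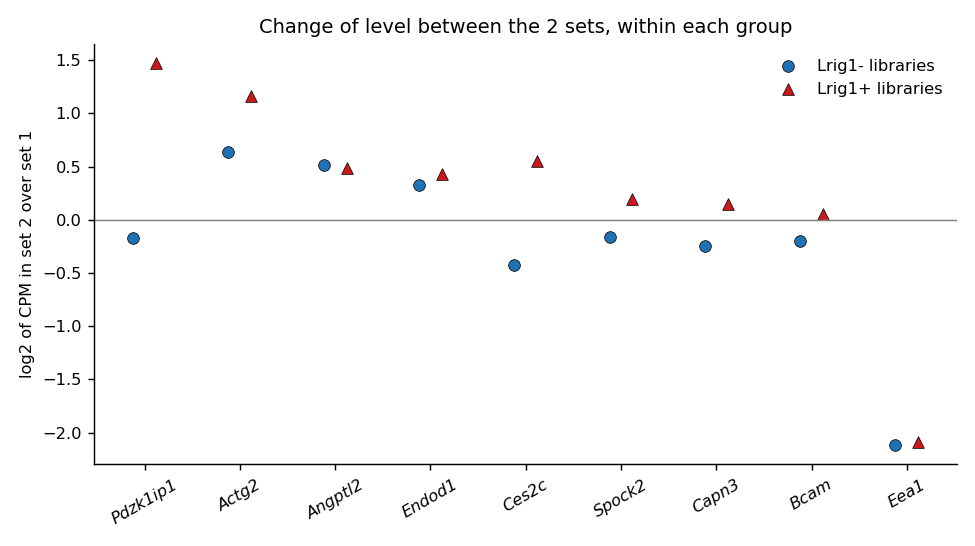
Log2 of the CPM in set 2 over set 1 (y axis) for each gene, in the CD4+Lrig1- libraries (circles) and the CD4+Lrig1+ libraries (triangles). *Eea1* lies near -2 in both groups, and *Pdzk1ip1* is the gene whose groups lie farthest apart.

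The transcripts of *Eea1* are the longest of the 9, with a weighted length of 7908 bases. Of the 1346 tested genes with a weighted transcript length above 7000 bases, 90.9% were lower in set 2 and the median was -1.25 on the log2 scale, beside 50.7% and -0.022 over all tested genes. The part of transcript length in the fall of *Eea1* was not tested. Whether the ratio of the groups itself differed between sets could not be tested with 1 library of each group in a set.

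The relatives and partners of the 9 genes fall into 10 lists with 91 genes, of which 47 could be tested. In the comparison of the groups 0 of the 47 passed the edgeR quasi-likelihood test, and with the set as a replicate block 11 were higher and 2 lower in CD4+Lrig1+ cells, against 14.6% and 12.8% of all genes. Among the actins, *Actb* and *Actg1* of the general cytoskeleton had log2 ratios of 0.08 and 0.11 in set 1 and of -0.06 and 0.05 in set 2. *Acta2*, the alpha actin of smooth muscle, was named after its values were seen and held 0 and 23 counts in set 1, and 11 and 61 in set 2 (adjusted p = 0.035 with the block in edgeR). It passed the filter on low counts only through the CD4+Lrig1+ libraries, so this call is no support. Among the angiopoietin-like genes, *Angptl4* had log2 ratios of 0.65 and 0.98 (adjusted p = 0.038 with the block in edgeR) and *Angptl6* of -0.48 and -0.13. All 3 listed receptors of Angptl2 could be tested. *Itgb1*, the integrin beta-1 chain, had log2 ratios of 1.48 and 1.55 (adjusted p = 3.9e-05 with the block in edgeR), *Itga5*, its partner chain in the fibronectin receptor, 0.11 and 0.10, and the inhibitory receptor *Pirb* -1.97 and -0.79 (adjusted p = 0.010 with the block in edgeR).

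Of the relatives and ligands of *Bcam*, 3 of 5 tested were higher with the block and 0 were lower, against 14.6% and 12.8% of all tested genes. *Lamc1*, the laminin gamma-1 chain, held 345 and 3077 counts in set 1, and 330 and 2116 in set 2 (adjusted p = 1.8e-05 with the block in edgeR). *Alcam*, an adhesion molecule of the same family, held 182 and 1017, and 286 and 1098 (adjusted p = 0.000125 with the block in edgeR). *Lama5*, the laminin alpha-5 chain that Bcam binds, was named after its values were seen and held 16 and 261 counts in set 1, and only 12 and 31 in set 2. Among the calpains 3 of 9 tested were higher with the block, and the small subunit *Capns1* had log2 ratios of 0.34 and 0.25 (adjusted p = 0.027 with the block in edgeR), while *Capn1* had 0.06 and 0.05. Of 18 further carboxylesterases, 13 were at 0 counts in all 4 libraries, and *Ces2g* was the single one tested. Of 17 genes of the early endosome, 1 was higher and 1 lower with the block. *Rab5c*, which recruits Eea1, had log2 ratios of 0.13 and -0.0041. Of the SPARC family 0 of 1 tested, of the partners of Pdzk1ip1 0 of 1 and of the other endonucleases 1 of 5 were higher with the block.

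Markers of other cell types were looked at because several of the 9 genes are known from other tissues. The 8 genes of CD4 T cell identity summed to between 3714 and 5833 CPM in the 4 libraries. Of 9 markers of smooth muscle, *Myh11*, *Cnn1*, *Des*, *Lmod1* and *Synm* were at 0 counts in all 4 libraries, while the list summed to 3.38 and 13.1 CPM in set 1, and to 1.20 and 7.24 CPM in set 2. Most of that sum was *Smtn*, smoothelin, with 152 and 650 counts in set 1, and 50 and 354 in set 2. *Acta2* of this list was also higher in CD4+Lrig1+ cells in both sets, with 0 and 23, and 11 and 61 counts. *Tagln* held 8 and 7, and 2 and 1, and *Mylk* 2 and 0 in each set. With the set as a replicate block 2 of the 2 tested markers of smooth muscle, *Smtn* and *Acta2*, were higher and 0 lower. Of all tested genes 14.6% were higher and 12.8% lower. *Acta2* passed the filter on low counts only through the CD4+Lrig1+ libraries, so its call is no support. The other markers of this list were not tested. Of 10 stromal markers 6 were at 0 throughout, *Dcn*, *Lum* and *Pdgfra* among them, and the list summed to 0.313 and 1.98 CPM, and to 0.981 and 2.16 CPM. The collagen gene *Col1a2* held 0 and 25, and 0 and 56 counts, and *Col1a1* 12 and 66, and 41 and 51. *Cxcl13* held 0 and 6, and 0 and 10 counts, and *Pdgfrb* 3 and 6, and 12 and 7. With the block 1 of the 2 tested stromal markers was higher and 0 were lower. The marker called was *Col1a2*. With 0 counts in both CD4+Lrig1- libraries it passed the filter on low counts only through the CD4+Lrig1+ libraries. It could therefore be called only as higher, and its call is no support. The 8 markers of epithelium and liver summed to 3.61 and 11.7 CPM, and to 6.81 and 16.3 CPM, with *Ttr* and *Cyp2e1* at 0 throughout. Most of it was *Epcam*, an adhesion molecule, at 110 and 554, and 191 and 869 counts, while *Cdh1*, E-cadherin, went the other way, at 63 and 30, and 153 and 28 counts. With the set as a replicate block 1 marker of this list was higher and 1 lower. The sums of these 3 lists were higher in CD4+Lrig1+ cells in both sets, and their part in the ratios was not tested. The markers with counts above 0 were named after their values were seen.

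Among the lists of other cells, the sums for B cells, myeloid cells, and erythroid cells and platelets moved mostly with the set. B cell markers summed to 71.7 and 92.8 CPM in set 1, and to 737 and 377 CPM in set 2. Myeloid markers summed to 71.7 and 95.1 CPM, and to 334 and 312 CPM. Single myeloid markers moved with the group in opposite directions. With the block 2 of 10 were higher (*Csf1r* and *Cybb*) and 3 lower (*Itgam*, *Mpeg1* and *S100a8*), against 14.6% and 12.8% of all tested genes. These 5 were named after their values were seen. CD8 and NK cell markers differed by set and by group, and summed to 60.5 and 48.4 CPM, and to 216 and 126 CPM. Of the 8 markers, 6 were lower in CD4+Lrig1+ cells and 1 higher with the block, against 12.8% and 14.6% of all tested genes. *Eomes*, a transcription factor of the list, was higher in the CD4+Lrig1+ library of both sets, with 201 and 1253, and 496 and 2371 counts. Erythroid and platelet markers summed to 9.15 and 8.31 CPM, and to 60.2 and 53.3 CPM. Endothelial markers summed to 210 and 172 CPM, and to 218 and 152 CPM, lower in CD4+Lrig1+ cells in both sets. Nearly all of that sum was *Pecam1*, at 207 and 170 CPM, and 214 and 149 CPM. *Cdh5* stood at 1.57 and 0.365 CPM, and 2.63 and 0.400 CPM, and *Emcn* and *Lyve1* were at 0 throughout. *Egfl7*, with 2 and 20, and 4 and 20 counts, and *Stab2*, with 12 and 49, and 67 and 108, went the other way. With the block 2 of the 6 tested endothelial markers were lower and 0 higher, against 12.8% and 14.6% of all tested genes. These endothelial genes were named after their values were seen. None of these lists summed higher in CD4+Lrig1+ cells in both sets, and their part in the results above was not tested.

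**Figure D5:**
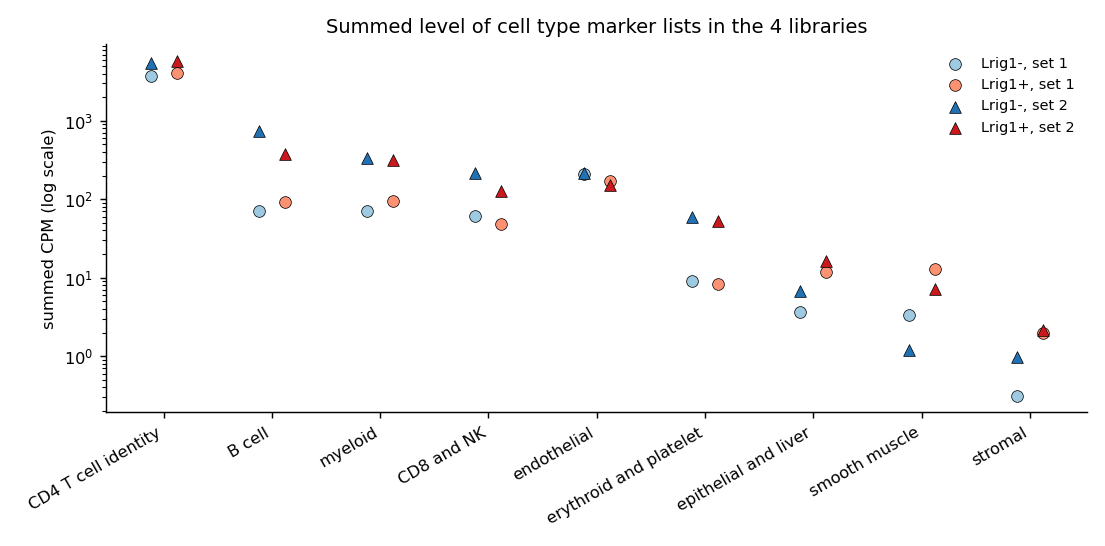
Summed CPM (y axis, log scale) of each list of cell type markers in the 4 libraries, CD4+Lrig1- in blue and CD4+Lrig1+ in red, set 1 as circles and set 2 as triangles. The B cell, myeloid, CD8 and NK, and erythroid lists are higher in set 2, and the sums of the smooth muscle, stromal and epithelial lists are higher in CD4+Lrig1+ cells.

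The genes most like each of the 9 across the 4 libraries were found by the smallest Euclidean distance of log2 CPM, centred on the mean of the 4, among tested genes with a mean count of at least 50. *Spock2* and *Bcam* were each the nearest gene to the other, at a distance of 0.18. *Nrp1*, which encodes the receptor neuropilin-1, was the second nearest to both *Spock2* (0.19) and *Angptl2* (0.34). *Nfil3*, a transcription factor, was the nearest to *Endod1* (0.12), and *Nrn1*, neuritin, the nearest to *Actg2* (0.26). *Fgf2* was the second nearest to *Capn3* (0.11). *Eea1* had no near neighbour, its nearest gene lying at 0.47. On log2(FPKM + 1), 0 of the 18 genes so found stayed among the 2 nearest, so the order rests on the scale.

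Windows at the transcription start were found in the RefSeq table (GRCm38.p6) for 7 of the 9 genes, with 2 windows for *Capn3*. They hold 250 bases before the start and run on past it. Each window of 300 bases was searched on both strands. The NF-kB motif GGANTTTCC occurred in 1 of the 8 windows, that of *Ces2c*, and in 1.25% of all 32851 windows. The GC box GGGCGG occurred in 3 of 8 windows, those of *Angptl2*, *Bcam* and *Eea1*, and in 35.7% of all. In *Bcam* its only match lay after the start, at position 10, and in *Eea1* matches lay on both sides of the start. The AP-1 motif TGANTCA, the forkhead motif GTAAACA, the Runx motif TGTGGTT, the STAT motif TTCNNNGAA, the Ets motif CAGGAAGT, the Smad palindrome GTCTAGAC, the TATA box TATAAA and the CArG box occurred in 0 of 8, and in between 0.213% and 13.6% of all windows. The *Ces2c* window is shown because it alone held a match to the NF-kB motif, at 140 bases before the start, which stands in capitals.
250 bases before the start of Ces2c, chr8:104846818-104847067, plus strand: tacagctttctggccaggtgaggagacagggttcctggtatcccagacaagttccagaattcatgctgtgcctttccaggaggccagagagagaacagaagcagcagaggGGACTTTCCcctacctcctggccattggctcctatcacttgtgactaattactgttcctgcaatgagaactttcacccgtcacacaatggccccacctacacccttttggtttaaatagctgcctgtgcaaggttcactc
A match of letters is a description of the sequence and says nothing of binding.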

How the data were processed

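RNA-seq of sorted splenic CD4+ T cells was used. The authors trimmed reads with Trimmomatic 0.38, aligned them with HISAT2 2.1.0 (Bowtie2 2.3.4.1 is also listed) to mm10 and assembled and quantified transcripts with StringTie 2.1.3b, which gave the deposited estimated counts and FPKM per transcript. The deposited FPKM values are scaled within each library by the authors. Estimated counts were summed over the rows of a gene symbol and rounded, which gave 45777 genes from 129299 transcripts. The 2 tables whose columns name the group were used. A further table has 6 columns of per-sample values whose names do not give the group, and it was not used.

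The members and the gene lists were chosen with earlier results of these data known. Genes were filtered with filterByExpr, normalized by TMM and tested with edgeR 4.0.16 in R 4.3.3, with Benjamini-Hochberg adjustment over 16123 genes. Adjusted p-values come from edgeR unless said. DESeq2 1.42.0 and limma 3.58.1 were alternatives. CPM are TMM-scaled. Log2 ratios of a set were taken after adding a prior count of 2, and intervals are exact binomial at 95%, conditional on the sum of both counts. The fit was also run on simulated counts that held no difference between the sets, so that run does not bear on how the calls depend on the block. Named genes were the 9 members, in each list the called genes or else the 2 with the highest mean FPKM, the 2 genes most like each member and the next protein-coding gene on each side. Depth was 44865070 to 59977951 estimated counts per library. Positions and strands are from the tables and GENCODE M21 (GRCm38), and promoter windows from RefSeq. Protein sequences were not used here.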

Additional observations from a re-analysis of the deposited data

How the results depend on the processing

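The count of genes called between the groups rested on the fit: 0 in the edgeR quasi-likelihood test, 4414 with the set as a replicate block, 313 with DESeq2's Wald test, 193 with the edgeR exact test, and 0 to 44 when each library was left out in turn. It stayed at 0 with size factors, both other filters, an adjusted p under 0.1 and limma on both FPKM scales. The labels number the samples but the columns do not, so the block is the set and not a known pair of animals. Genes called between the sets numbered 10742 with and 5660 without the group term; leaving out a library left no residual degrees of freedom there and was not run. The median log2 ratio of the 9 genes in set 1 was 2.43 on log2(FPKM + 1) and 3.29 on log2(FPKM + 0.1), and in set 2 it was 3.06 on log2(FPKM + 1) and 3.82 with the leading transcript alone; the pseudocount shrinks low genes by construction. Of 180 alternative values of single members, 1 reversed, *Capn3* in set 1 at -0.43 with its leading transcript alone. That choice also moved *Eea1* from 2.94 to 1.70 in set 1 and from 2.96 to 9.28 in set 2, and *Pdzk1ip1* from 4.57 to 3.12 and from 6.16 to 4.96. The log2 fold of *Eea1* over both sets was 2.95, and ran from 1.57 without the CD4+Lrig1+ library of set 1 to 4.40 without the CD4+Lrig1- library of set 1. Depth limits *Pdzk1ip1*, with 6 counts in each CD4+Lrig1- library.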

Other observations

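The protein-coding genes next to the 9 did not share their ratios in general. Of the 18 neighbours 14 could be tested, and 0 passed between the groups in the edgeR quasi-likelihood test. With the set as a replicate block 3 were higher and 1 lower, against 14.6% and 12.8% of all tested genes. The median log2 ratio of these 14 was 0.14 in set 1 and 0.0087 in set 2. *Nectin2*, an adhesion molecule 6564 bases from *Bcam*, was the single neighbour with a log2 ratio above 2 in both sets, with 0 and 78 counts in set 1 and 9 and 105 in set 2. It is among the 3 called higher, and it passed the filter on low counts only through the CD4+Lrig1+ libraries. *Ganc* and *Zfp106*, on either side of *Capn3*, had log2 ratios between -0.16 and 0.27. *Ralgps1*, which overlaps *Angptl2* on the other strand, held 1434 and 1549 counts in set 1, and 667 and 568 in set 2. The kit kept strand, but whether the counting used it is not given in the sources used here, so reads of the shared stretch cannot be assigned with certainty. *Gm8798* and *Gm6831*, which share windows of 50 bases with *Ces2c*, held 15 and 231 counts and 0 and 118 counts in set 1, and 0 and 105 counts and 0 and 77 counts in set 2.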
